A study of Bos taurus with 2 samples.

Results

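The windows described here are stretches of 1 kb (1000 bp) in the cattle genome in which at least 90% of the CpG calls were methylated in both of 2 bone samples. They were chosen by their measured levels: of 2489384 windows on chromosomes 1 to 29, the 1081126 with at least 100 calls in each sample were considered (43.4%), and the 2073 at 90% or more in both samples are the members, 0.192% of the windows considered. The level of a window is its methylated calls over all its calls, in percent, summed over both strands. Windows at 90% or more in Bone_1 made up 13.4% of those considered (144658) and windows at 90% or more in Bone_2 made up 0.215% (2321), so that Bone_2 set the limit of the list. The members were compared with the 142585 windows that reached 90% in Bone_1 only, named Bone_1-only windows in what follows. How often a window reached 90% is what the choice used, and it is given as a description.

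The samples, Bone_1 and Bone_2, were both bone of female Holstein cattle (Bos taurus) according to their labels. No treatment, age or genotype was given. They belonged to a larger study of cattle tissues. It set DNA methylation and gene expression in cattle beside histone marks predicted from human data. Whether the 2 samples came from separate animals, and which bone or which cells of bone were taken, is not given in the sources used here. Genomic DNA was measured by WGBS (whole-genome bisulfite sequencing), in which bisulfite converts unmethylated cytosines and spares methylated ones, so that each read over a CpG gives a methylated or an unmethylated call. Bone_1 held 445684877 calls on chromosomes 1 to 29 and Bone_2 held 389385549, and the median window with enough calls had a level of 80.9% in Bone_1 and 62.4% in Bone_2. That gap between the samples runs through every comparison below. With 1 group of 2 samples there is no contrast of conditions, and no test was run. Intervals are 95% Wilson intervals of a share, which count each call or window as independent and cover counting error only. They are likely too narrow even for that, since 1 read can call several CpG sites, above all where sites are dense. Reads also carry no molecular identifiers, and neighbouring windows are not independent of each other.

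In mammals, methyl groups on cytosine occur mostly at CpG sites and are copied to the new strand after replication by DNMT1. Most of the genome is methylated and poor in CpG, because methylated cytosine mutates readily to thymine. CpG-rich stretches, called CpG islands, often cover gene starts and are then usually unmethylated, while CpG-rich stretches inside gene bodies, in repeats and near chromosome ends are often methylated. A region that is nearly fully methylated in a whole tissue is methylated in most of the cells that the tissue holds.

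The sequences below show what both extremes of CpG density looked like and are given as the CpG-densest 120 bases of each window. They were rebuilt from the base contexts in the deposited counts, 5′ to 3′ on the plus strand, with CpG sites in capitals, the bases next to a CpG in lower case and n for a base that the counts do not give. Coordinates are on ARS-UCD1.2, the build in the submitters' processing notes. The first 4 are members: the window with the most CpG sites (chr22), a window of equally spaced sites (chr11), the one of the 5 CpG-richest members that was highest in both samples (chr21) and the first window of the longest run (chr25). The fifth is a member with only 3 CpG sites (chr13). The last 2 are Bone_1-only windows, the one with the most CpG sites (chr25) and one of the lowest in Bone_2 (chr26). The chr13 window, the Bone_1-only window of chr25 and the chr26 window among the 5 lowest were chosen after their values were seen.
chr22:60453690-60453809: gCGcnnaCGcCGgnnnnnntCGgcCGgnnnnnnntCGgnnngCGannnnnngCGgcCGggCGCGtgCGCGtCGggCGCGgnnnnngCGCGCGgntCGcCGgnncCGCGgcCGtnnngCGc
chr11:103920003-103920122: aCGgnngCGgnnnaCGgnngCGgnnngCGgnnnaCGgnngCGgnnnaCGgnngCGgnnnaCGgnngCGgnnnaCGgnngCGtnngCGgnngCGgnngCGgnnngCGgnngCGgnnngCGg
chr21:67252356-67252475: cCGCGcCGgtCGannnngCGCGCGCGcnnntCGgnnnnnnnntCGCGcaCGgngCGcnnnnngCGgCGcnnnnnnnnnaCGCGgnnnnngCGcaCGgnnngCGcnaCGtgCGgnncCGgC
chr25:2290010-2290129: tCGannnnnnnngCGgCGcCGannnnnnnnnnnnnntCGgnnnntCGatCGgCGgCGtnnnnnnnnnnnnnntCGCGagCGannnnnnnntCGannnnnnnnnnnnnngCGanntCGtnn
chr13:23702426-23702545: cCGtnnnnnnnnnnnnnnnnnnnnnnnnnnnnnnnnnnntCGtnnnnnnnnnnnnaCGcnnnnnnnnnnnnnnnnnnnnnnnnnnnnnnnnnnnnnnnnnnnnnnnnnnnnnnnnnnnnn
chr25:38469473-38469592: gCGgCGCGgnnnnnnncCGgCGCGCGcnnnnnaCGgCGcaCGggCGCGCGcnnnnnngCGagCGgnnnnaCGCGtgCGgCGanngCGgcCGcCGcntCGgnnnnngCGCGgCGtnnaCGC
chr26:44565714-44565833: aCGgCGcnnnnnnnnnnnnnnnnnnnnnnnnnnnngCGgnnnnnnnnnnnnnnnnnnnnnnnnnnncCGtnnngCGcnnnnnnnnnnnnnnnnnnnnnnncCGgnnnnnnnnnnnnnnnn

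The stretch of chr22 held 25 CpG sites and was methylated in 96.2% of 1404 calls in Bone_1 and 96.4% of 83 calls in Bone_2. The stretch of chr11 held 19 sites, at 91.7% of 240 calls in Bone_1, while Bone_2 covered 8 of the 19 sites, with 14 calls in all, each of them methylated. Its sites came at even distances: over the whole window, 73 of the 140 gaps between neighbouring sites measured 6 bases and 44 measured 7 bases, together 83.6%, against 12.4% of the gaps in all members with 40 or more sites. The chr21 stretch, with 23 sites, stood at 97.7% of 1168 calls in Bone_1 and 97.6% of 126 calls in Bone_2. On chr25, 15 sites in the stretch of the longest run stood at 97.8% of 1224 calls in Bone_1 and 96.3% of 160 calls in Bone_2. The 3 sites of chr13 stood at 91.6% of 107 calls and 95.2% of 125 calls. In contrast, the CpG-dense Bone_1-only stretch of chr25, with 27 sites, stood at 97.5% of 1550 calls in Bone_1 and 88.9% of 316 calls in Bone_2, and the chr26 stretch, with 6 sites, stood at 86.3% of 168 calls in Bone_1 and 12.1% of 33 calls in Bone_2. The latter was the lowest of the 5 such stretches, of which the other 4 stood between 27% and 85% in Bone_2.

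Members were close to the limit in Bone_2 and well inside it in Bone_1. Their levels in Bone_1 ran from 90% to 100% with a median of 94.3%, and in Bone_2 from 90% to 99.3% with a median of 91.3%. Bone_2 was thus lower in most members, by a median of 2.67 percentage points, while 251 members (12.1%) were higher in Bone_2. Among the Bone_1-only windows the median was 92.2% in Bone_1 and 74.6% in Bone_2, with a median gap of 17.9 points, close to the 16.7 points of all windows considered. These levels are what the choice was made on, so they carry no test.

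The Bone_2 levels of the 144658 windows high in Bone_1 formed 1 broad distribution, and the members were its upper tail. There was no separate peak above 90%. Just inside the limit, 871 members lay between 90% and 91% in Bone_2, with a median of 94.1% in Bone_1. Just outside it, 1133 windows lay between 89% and 90%, with a median of 94% in Bone_1 and the same median of 15 CpG sites as those just inside. At the median of the members in Bone_2, 91.3% of 235 calls, the Wilson interval ran from 87.0% to 94.2%, so counting error alone could carry many windows across the limit. The lower bounds of both samples reached 90% in 158 members, 7.62% of the list, whose median number of calls was 1104 in Bone_1 and 332 in Bone_2.

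**Figure D1:**
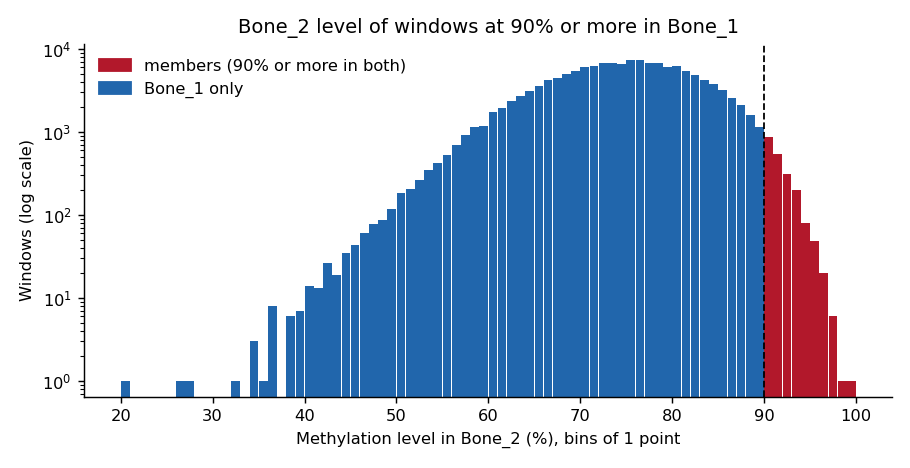
Number of windows (log scale) by methylation level in Bone_2, in bins of 1 percentage point, for all 144658 windows at 90% or more in Bone_1. Red bars are the 2073 members and blue bars the Bone_1-only windows; the counts fall without a break from 1133 just outside the 90% limit (dashed line) to 871 just inside it.

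Members held more CpG sites than Bone_1-only windows, mainly through an excess of CpG-dense windows. The median was 15 sites in members and 13 in Bone_1-only windows and in all windows considered, whereas the means were 24.4, 16.9 and 16.7 sites. Windows with 40 or more sites, named CpG-dense here, made up 19.4% of the members (402), 5.58% of the Bone_1-only windows and 5.22% of the windows considered. In the other direction, windows with 10 to 19 sites made up 40.3% of the members and 53.0% of the Bone_1-only windows. By chromosome, the median number of sites was higher in members on 20 of 29, equal on 4 and lower on 5, while the mean was higher on all 29. The share of CpG-dense windows was higher on 28 of 29, the exception being chromosome 28, where 0 of 34 members and 0.849% of the Bone_1-only windows were CpG-dense.

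Counted the other way, the share of Bone_1-high windows that were also high in Bone_2 was lowest at 10 to 19 sites and rose with density from there. It was 1.28% (interval 1.16% to 1.41%) at 1 to 9 sites, 1.09% (1.02% to 1.17%) at 10 to 19 sites and 1.54% (1.40% to 1.69%) at 20 to 39 sites. It was 3.83% (3.38% to 4.33%) at 40 to 59 sites and 7.76% (6.69% to 8.99%) at 60 or more, against 1.43% over all densities. The intervals of the 3 classes below 40 sites did not overlap those of the 2 classes above. Across the whole range of Bone_2 levels the share of CpG-dense windows climbed with the level, from 1.92% of the 522 Bone_1-high windows below 50% in Bone_2, through 5.05% between 70% and 80% and 12.7% between 85% and 90%, to 22.0% between 92% and 95% and 38.2% of the 76 windows at 95% or more.

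**Figure D2:**
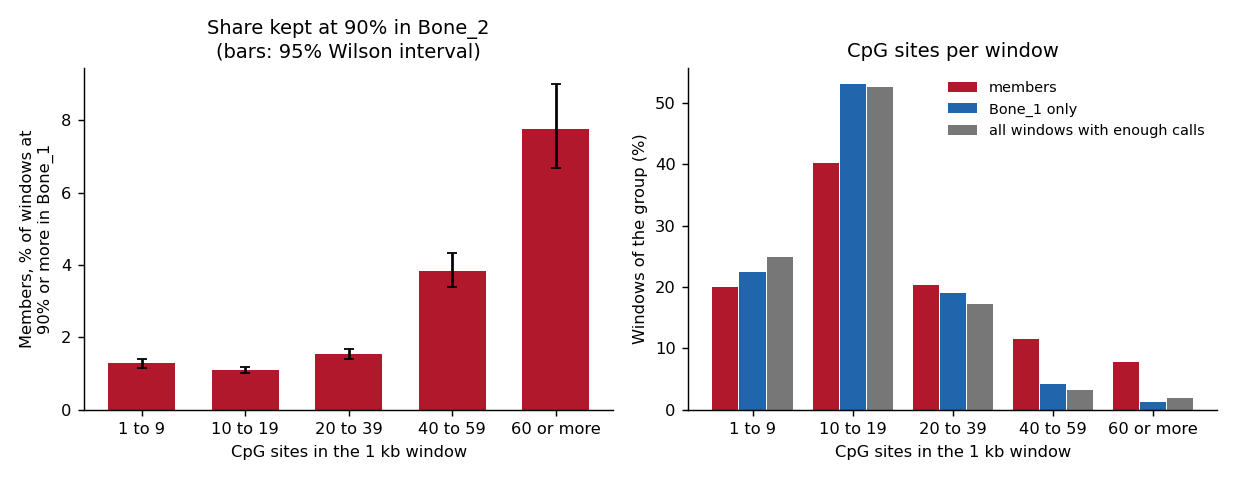
Left, members as a percentage of the windows at 90% or more in Bone_1, by number of CpG sites in the 1 kb window, with 95% Wilson intervals. Right, percentage of members, Bone_1-only windows and all windows with enough calls in each class of CpG sites; members were at 11.6% and 7.81% in the 2 densest classes, against 4.23% and 1.35% of the Bone_1-only windows.

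The densest windows as a whole were mostly unmethylated. Of the 20883 windows with 60 or more sites, 14447 were below 20% in both samples, and the median over this class was 3.99% in Bone_1 and 4.69% in Bone_2. The other large group of the class, 4471 windows, was above 50% in both samples, and 3.62% of these were members. Below 20 sites, 715069 windows were above 50% in both samples and 0.175% of these were members. Among windows above 50% in both samples, membership was more frequent at 60 or more sites than below 20, although most of the densest windows were nearly unmethylated. The cut at 50% and membership use the same levels, so this is a description only.

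Sequencing depth moved with CpG density and differed between the samples. In Bone_1-high windows the median calls per site in Bone_1 were 20.4 at 1 to 9 sites, 16.7 at 10 to 19 and 28.1 at 60 or more. In Bone_2 they went down, from 20.5 through 16.6 to 5.50 in the same classes. With density merged into 3 classes (1 to 19, 20 to 39 and 40 or more sites), the share rose from class to class within each class of calls in Bone_2. It did so too within each class of calls per site in Bone_1. The finer classes of density, with the lowest share at 10 to 19 sites, were not split in this way. Each split held only 1 measure of depth within a range, and calls per site in Bone_2 were not matched. Among Bone_1-high windows with fewer than 200 calls in Bone_2, members were 1.12% at 1 to 19 sites, 1.71% at 20 to 39 and 3.54% at 40 or more. With 400 or more calls in Bone_2 the values were 1.43%, 1.64% and 5.48%. Sorted by calls per site in Bone_1, members were 1.02% at 1 to 19 sites and 3.07% at 40 or more where there were 10 to 20 calls per site, and 1.61% and 6.64% where there were 30 or more.

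Membership also rose with the level in Bone_1, at each density, apart from the class of 40 or more sites at 98% to 100% in Bone_1, which held 2 windows and 0 members. Of Bone_1-high windows at 90% to 92% in Bone_1, 0.464% were members, and at 96% to 98% this was 4.64%. At a fixed level in Bone_1 of 94% to 96%, members were 2.14% of the windows with 1 to 19 sites, 3.58% of those with 20 to 39 and 13.2% of those with 40 or more. These windows were alike in measured level only, and the number of calls behind it differed with density. Membership also uses that level, so the shares are a description, and the part of level or counting error was not tested.

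The 5 members with the most CpG sites lay on 5 chromosomes. The window chr22:60453001-60454000, with 149 sites, stood at 95.4% in Bone_1 (interval 94.9% to 95.9%) and 94.3% in Bone_2 (91.8% to 96.1%). In Bone_1 all 149 of its sites had 10 or more calls, and the lowest stood at 85.1%. The window chr11:103920001-103921000, with 141 sites, stood at 94.9% of 4107 calls and 94.3% of 264 calls. Bone_2 was the higher sample in the other 3. These were chr12:35675001-35676000 with 136 sites (93.3% in Bone_1 and 96.9% in Bone_2), chr18:65787001-65788000 with 134 sites (91.9% and 94.1%) and chr21:67252001-67253000 with 133 sites (96.1% and 97.3%). The lowest site of Bone_1 with 10 or more calls stood at 60% in the chr11 window, 60.5% in the chr12 window and 85% in the chr21 window. The chr18 window held 1 site without a methylated call, at position 65787578, with 0 methylated of 32 calls in Bone_1 and 0 of 3 in Bone_2. Whether a sequence variant lay there was not examined. In Bone_2 the median number of calls per site in these 5 windows was between 1 and 6, and 4 of them had no site with 10 or more calls. The chr11 window had 5 such sites, with a median of 81.8% and a lowest level of 69.2%, and 2 of them were at 90% or more.

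The 5 Bone_1-only windows with at least 20 sites and the lowest Bone_2 levels had 20 to 27 sites each. Lowest was chr4:92899001-92900000, at 90.3% of 267 calls in Bone_1 and 32.7% of 165 calls in Bone_2. The others were chr26:44565001-44566000 at 90.6% and 36.6%, chr1:7281001-7282000 at 91.3% and 36.8%, chr1:79086001-79087000 at 94.4% and 38.2%, and chr1:114036001-114037000 at 95% and 38.5%. In 4 of them the gap was also present in the unweighted mean over sites with calls in both samples, which was 89.1% to 96% in Bone_1 and 34.4% to 45.0% in Bone_2. The window chr1:7281001-7282000 differed: 7 of its 22 sites were unmethylated in both samples, with 0 methylated of 20 calls in Bone_1 and 2 of 190 in Bone_2. Its other 15 sites stood at 95% in Bone_1 and 76.9% of 169 calls in Bone_2, and the unweighted means over its sites were 64.5% and 51.9%. Much of the gap in that window's level thus lay in where the calls of each sample fell. The densest Bone_1-only window, chr25:38469001-38470000 with 162 sites, was in contrast close to it, at 96% of 6325 calls in Bone_1 and 85.9% of 980 calls in Bone_2.

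Single sites of the members rarely had low measured levels, as a choice on the window's level favours. Of 44195 member sites with 10 or more calls in Bone_1, 82.9% were at 90% or more, 16.8% between 50% and 90%, and 20 sites (0.0453%) at 10% or less. Of 23385 such sites in Bone_2, 69.5% were at 90% or more, 30.3% between 50% and 90%, and 6 sites (0.0257%) at 10% or less. The 2 sets of sites differ in make-up and depth, so these shares do not compare the samples site by site. In CpG-dense members the median calls per site were 28.4 in Bone_1 and 6.52 in Bone_2. In Bone_1-only windows 15.6% of the sites were at 90% or more in Bone_2 and 79.3% between 50% and 90%. The lower level of these windows in Bone_2 was therefore spread over most sites at intermediate levels, and 0.333% of their sites stood at 10% or less. Of the 19407 member sites with 10 or more calls in each sample, 1 was at 10% or less in both. It lay at chr4:32383505-32383506 in a window of 28 sites, with 1 methylated of 98 calls in Bone_1 and 0 of 10 in Bone_2. Another 6 sites were at 10% or less in Bone_1 and over 50% in Bone_2, and 3 were the other way. In Bone_1-only windows 265 of 1248511 such sites were at 10% or less in both samples. Low sites were rare there in Bone_1 too, with 0.0631% of the sites at 10% or less. Sequence variants at single low sites were not examined. Both strands of the members had close levels, at 94.2% and 94.1% in Bone_1 and 91.6% and 91.7% in Bone_2 for the plus and minus strand. The choice used the sum of both strands. In Bone_1-only windows the strands were as close, at 92.41% and 92.42% in Bone_1 and 74.59% and 74.61% in Bone_2.

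The bases beside the CpG sites were richer in C and G in members. Of the bases directly before and after a site, 59.3% were C or G in members, 52.0% in Bone_1-only windows and 52.9% in all windows considered. Much of this went with density: at 1 to 19 sites the shares were 45.9%, 45.2% and 44.9%, and at 40 or more sites 67.8%, 65.6% and 70.4%. In CpG-dense windows, members thus lay between the Bone_1-only windows and all CpG-dense windows. The latter had median levels of 63.0% in Bone_1 and 46.7% in Bone_2, and the part of the level in this order was not tested. Each site was also counted with 1 base on either side, joining the 2 strands (10 contexts). Over all densities CCGC was the context of 19.3% of member sites and 14.3% of Bone_1-only sites. For GCGC these shares were 7.89% and 5.15%, and for ACGA 8.99% and 11.9%. Within classes of density the gaps were smaller. At 1 to 19 sites CCGC took 9.91% and 9.81%, GCGC 3.93% and 3.33%, and ACGA 14.39% and 14.97%. At 40 or more sites the shares were 25.23% and 23.54%, 10.67% and 9.09%, and 5.71% and 6.32%. In all CpG-dense windows considered, CCGC (27.28%) and GCGC (10.97%) were above the members and ACGA (4.93%) was below them.

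The same contexts were highest and lowest in both samples, by gaps of unlike size. In members GCGC sites were the highest, at 95.9% in Bone_1 and 94.3% in Bone_2, and ACGT sites the lowest, at 91.6% and 88.4%. In Bone_1-only windows these contexts stood at 94.5% and 89.7% in Bone_1, and at 79.8% and 69.9% in Bone_2. Members were chosen at 90% or more, which leaves little room for a spread between contexts, so the size of this difference was not compared between the groups. The part of these contexts in the levels of the members was not tested.

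Most members stood alone. The 2073 members fell into 1919 runs of adjoining members, of which 1786 were single windows, 117 were pairs, 13 were runs of 3 and 3 were longer, up to 6 windows. Of the 1714 members that had a neighbour with enough calls, 287 (16.7%, interval 15.1% to 18.6%) had another member on at least 1 side. Of the Bone_1-only windows with such a neighbour, 48.0% had another Bone_1-only window on at least 1 side, from a list that is far longer. Counted per adjoining window, members took 11.2% of the windows beside members, against 0.192% of all windows considered, and Bone_1-only windows took 37.5% of those beside Bone_1-only windows, against 13.2%. The share with a member beside was 13.5% of 913 members at 1 to 19 sites, 19.7% of 401 at 20 to 39 and 21.3% of 400 at 40 or more. Members were also a larger share of the windows considered at higher density. That share was 0.154% at 1 to 9 sites, 0.147% at 10 to 19, 0.227% at 20 to 39 and 0.713% at 40 or more. The shares with a member beside were not set against it, so they do not rank clustering by density.

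The windows next to a member were mostly high in Bone_1 and intermediate in Bone_2. Of the 2750 adjoining windows with enough calls, 55% were Bone_1-only windows and 33.8% were below 90% in Bone_1. Their median level was 92% in Bone_1 and 82.6% in Bone_2, and 1.49% of them (41) were below 50% in Bone_2. Beside Bone_1-only windows the medians were 88.2% and 71.4%, and 5.55% of the adjoining windows were below 50% in Bone_2. The nearest other member was 20 kb away at the median. It lay within 10 kb for 40.4% of the members, within 100 kb for 69.0%, and more than 1000 kb away for 10.2%.

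The longest run, chr25:2290001-2296000, held 6 members with 212 CpG sites, at 96.1% of 8214 calls in Bone_1 and 94.2% of 2169 calls in Bone_2. Its first window was the densest, with 86 sites at 97.3% and 96.9%, and gave 4590 of the calls in Bone_1. Calls were uneven over the run: the third window had 112 calls in Bone_1, and 2 of its 6 sites had 10 or more. Over the run, 179 of 188 sites with 10 or more calls stood at 90% or more in Bone_1 and 96 of 114 did so in Bone_2. In Bone_1, 2 sites were below 50%, the lowest at 3.85%, and in Bone_2 the lowest site stood at 63.6%. The window before the run was at 92.4% and 88.2%, and the window after it at 87.2% in Bone_1 and 94.2% in Bone_2, so that Bone_2 ended the run on one side and Bone_1 on the other.

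**Figure D3:**
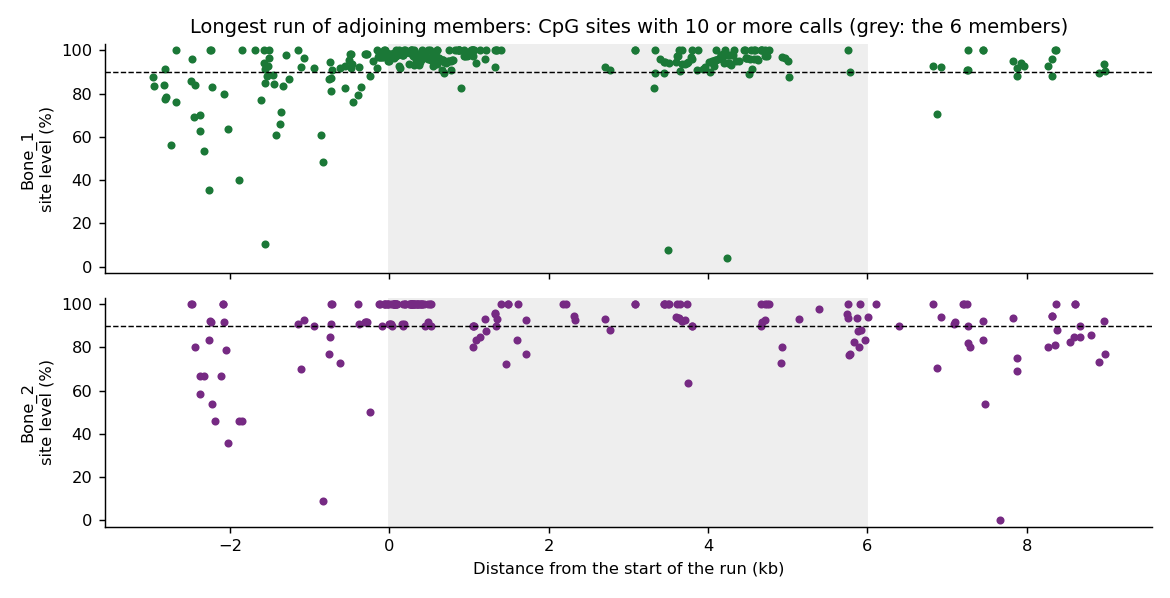
Methylation level (%) of single CpG sites with 10 or more calls in Bone_1 (top) and Bone_2 (bottom), against the distance in kb from the start of the longest run; the dashed line marks 90%. In the 6 members (grey) 179 of 188 sites of Bone_1 and 96 of 114 sites of Bone_2 stood at 90% or more. Sites below 60% are seen in the 3 kb before the run in both samples and after the run in Bone_2. In the members, 2 sites of Bone_1 stood below 50%.

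The next runs had 4 members each. One lay on the same chromosome at chr25:1957001-1961000, with 170 sites at 95.1% of 4739 calls in Bone_1 and 92.2% of 1283 calls in Bone_2. Its neighbours were at 91.9% and 89.2% before it and at 93.6% and 82.5% after it. The other, chr26:47510001-47514000, had 104 sites at 95.2% of 1656 calls and 92.3% of 1411 calls. The window after it stood at 96.7% in Bone_1 and 95.4% in Bone_2, but with 30 calls in Bone_1 it was under the minimum of calls, and the run ended there.

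Levels around members fell off over several kb, and in Bone_2 they stayed above those around other windows for longer. Members themselves were left out of the flanks in each group. In Bone_2 the summed level beside members was 79.2% at 1 kb, 71.3% at 5 kb, 69.0% at 10 kb and 66.4% at 20 kb. Beside Bone_1-only windows it was 69.3%, 64.8%, 64.2% and 63.5% at these distances, and beside all windows considered it was 58.3% at 1 kb and 59.2% at 10 kb. In Bone_1 the level beside members was 89.3% at 1 kb and 77.8% at 5 kb, above the 84.8% and 75.6% beside Bone_1-only windows, but at 10 kb it was 73.3% against 74.7% and at 20 kb 71.0% against 73.8%. At 100 kb the levels beside members and beside Bone_1-only windows were 73.3% and 73.0% in Bone_1, and 61.9% and 61.6% in Bone_2. Members were denser in CpG than Bone_1-only windows, so the flanks were also read within classes of the central window. In Bone_2 the flanks of members with 1 to 19 sites were higher at each distance measured, with 69.2% against 64.3% at 10 kb. With 40 or more sites they were higher at 10 kb (68.3% against 63.8%) and at the other distances except 50 kb, where they were lower (60.2% against 60.9%). In Bone_1 the flanks of members were higher up to 5 kb in both classes, lower from 7 kb on in the class of 1 to 19 sites, and without a fixed order from 6 kb on in the class of 40 or more.

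**Figure D4:**
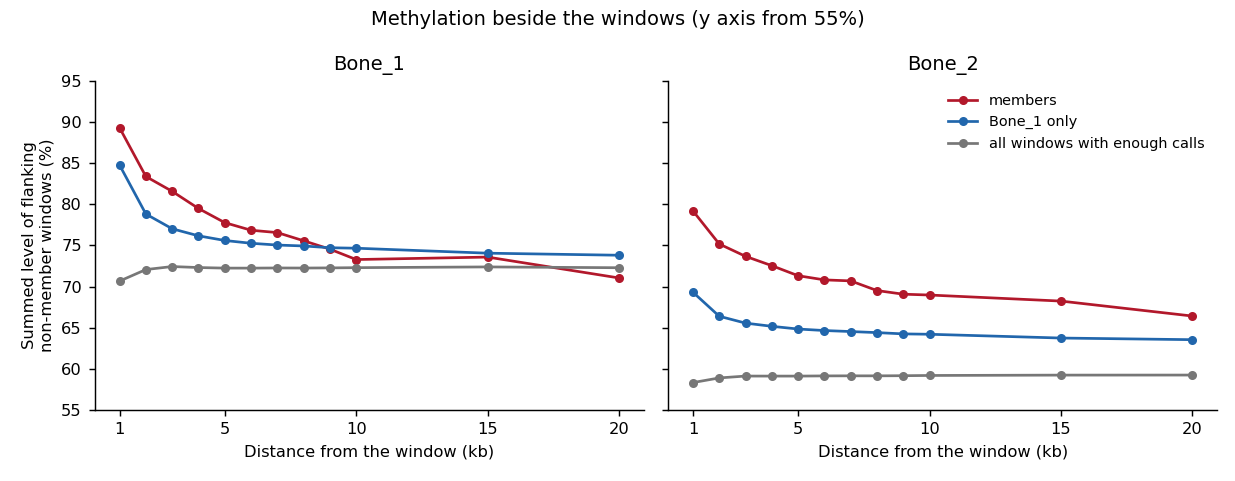
Summed methylation level (%) of non-member windows at 1 to 20 kb from members (red), Bone_1-only windows (blue) and all windows with enough calls (grey), in Bone_1 (left) and Bone_2 (right); the y axis starts at 55%. In Bone_1 the red line meets the blue one near 9 kb, while in Bone_2 it falls from 79.2% to 66.4% and stays above the other two lines.

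Over wider surroundings the order of the groups in summed levels differed between the samples. Sums weight each site by its calls, here and in the flanks. In Bone_1-high windows, calls per site rose with density from 10 sites on in Bone_1 and fell in Bone_2. Windows 10 kb from members held a mean of 17.2 CpG sites, against 14.1 beside Bone_1-only windows. What part this weighting had in the order was not tested. For each window the 100 kb bin around it was summed without the window itself and without any member, while Bone_1-only windows stayed in. The median bin level in Bone_2 was 66.7% for members, 63.3% for Bone_1-only windows and 59.1% for all windows considered, whereas in Bone_1 it was 74.2%, 76.7% and 74.8%. The bin stood at 65% or more in Bone_2 for 58.4% of the members, 39.1% of the Bone_1-only windows and 15% of all windows considered.

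Every autosome held members, from 18 on chromosome 27 to 137 on chromosome 1. As a share of the windows considered, members ranged from 0.0810% on chromosome 27 to 0.281% on chromosome 17. As a share of the Bone_1-high windows they ranged from 0.687% on chromosome 9 to 2.21% on chromosome 6.

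Members were more frequent towards the end of the chromosome coordinates. Their last 5 Mb held 20.6% of the members (427), 10.6% of the Bone_1-only windows and 10.3% of the windows considered. The last 2 Mb held 12%, 4.70% and 4.12%. The first 5 Mb held 6.37%, 4.98% and 5.83%, a smaller difference. Cattle autosomes are acrocentric, with the centromere near one end.

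The position of the members moved with their CpG density. CpG-dense windows of each group crowded into the last 5 Mb, with 55% of the CpG-dense members (221), 50.5% of the CpG-dense Bone_1-only windows and 37.4% of all CpG-dense windows considered. At 1 to 19 sites these shares were 7.37%, 5.05% and 5.42%. Among Bone_1-high windows with 1 to 19 sites, members were 1.66% (interval 1.36% to 2.04%) in the last 5 Mb, 1.24% (0.962% to 1.60%) in the first 5 Mb and 1.11% (1.05% to 1.18%) in the chromosome's interior. At 20 to 39 sites they were 1.96% (1.63% to 2.35%), 2.02% (1.47% to 2.78%) and 1.37% (1.21% to 1.54%), so that the last 5 Mb lay above the interior in both classes and the first 5 Mb was as high as the last in the second. At 40 or more sites they were 5.21% (4.58% to 5.92%) in the last 5 Mb, 5.06% (3.69% to 6.90%) in the first 5 Mb and 4.25% (3.62% to 4.99%) in the interior, with overlapping intervals. Over all densities the share was higher in the last 5 Mb than elsewhere on 18 of 29 chromosomes.

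**Figure D5:**
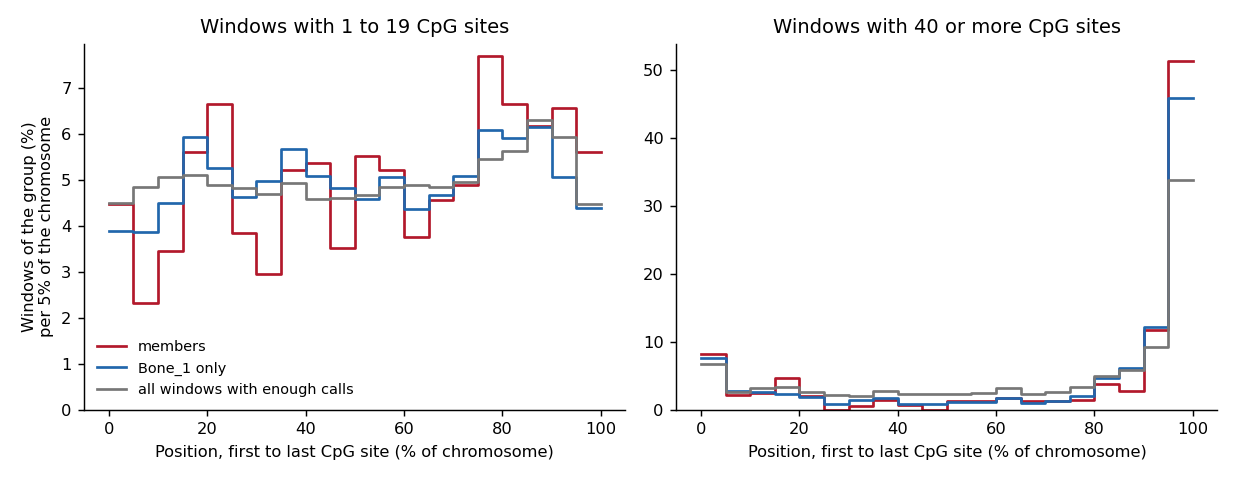
Percentage of each group's windows in each 5% of the chromosome, from the first to the last CpG site, for windows with 1 to 19 CpG sites (left) and 40 or more (right). The CpG-dense windows of all 3 groups pile up in the last step, with 51.2% of the CpG-dense members, while the CpG-poor members show no such peak; the y axes differ.

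Members also gathered in a few regions. Of 2505 bins of 1 Mb, 1699 held no member, 372 held 1, 326 held 2 to 4 and 108 held 5 or more. The 20 bins with 10 or more members (0.798% of the bins) held 283 members, 13.7% of the list, on 15 chromosomes. They were picked by their members, so a high share follows from the choice. They held 13782 of the 1081126 windows considered and 2660 of the 142585 Bone_1-only windows. Of these bins, 11 began in the last 5 Mb of their chromosome, where 10.3% of all windows considered lay. In these bins 37.8% of the members were CpG-dense, against 16.5% of the members elsewhere. The other groups were also denser there: 25.2% of the Bone_1-only windows in these bins were CpG-dense against 5.21% elsewhere, and 22.1% of all windows considered against 5% elsewhere.

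The bin with the most members was chr17:72000001-73000000, whose start lay 1.17 Mb before the last CpG site of the chromosome. It held 33 members among 981 windows with enough calls (3.36%), and 10.9% of its 302 Bone_1-high windows were members. They had 31 to 121 CpG sites with a median of 58, beside a median of 49 in the Bone_1-only windows in the same bin, and 31 of them had 40 or more. Their levels were 90.4% to 96.4% in Bone_1 and 90% to 94.4% in Bone_2. The other windows of the bin summed to 68.9% and 59.7%, beside levels of 71.9% and 59% summed over all windows considered.

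Next came chr6:116000001-117000000, 1.81 Mb before the last site, with 29 members of 933 windows (3.11%). Its members had 13 to 92 sites with a median of 37 (35 in its Bone_1-only windows), and 13 of them were CpG-dense. Their levels were 92% to 98.2% in Bone_1 and 90.1% to 95.4% in Bone_2, with the bin's other windows at 74.3% and 63.8%. The third bin, chr19:12000001-13000000, differed from both. It lay in the interior, 51.4 Mb before the last site, and held 23 members of 501 windows (4.59%), with 6 to 40 sites, a median of 11 (12 in its Bone_1-only windows) and 1 CpG-dense member. Levels there were 91.9% to 98.3% in Bone_1 and 90% to 97.7% in Bone_2, and the other windows summed to 70.2% and 63.3%. A dense cluster of members could thus be made of CpG-poor windows away from the chromosome end.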

How the data were processed

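WGBS of 2 bone samples was analysed. The authors trimmed the reads with Trim Galore (0.4.5 in the submitters' notes), mapped them with Bismark (0.19.0 there) and Bowtie2, removed duplicates and deposited, for every CpG cytosine of either strand, counts of calls that were methylated and that were not, without normalization. The paper's methods name other versions of both tools. The submitters' notes name ARS-UCD1.2, while the methods of the paper name UMD3.1.1 and the counts name no build, so coordinates rest on the notes. All sequences together held 582241763 calls in Bone_1 and 440334436 in Bone_2. How well bisulfite converted the DNA was not analysed here.

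Here the calls of a CpG's cytosines on both strands were added up and then summed over windows with Python 3.11.15, numpy 2.4.6 and pandas 2.3.3 (figures with matplotlib 3.10.9), with a minimum of 100 calls in each sample. Windows and lists were chosen with earlier results of these data known. The windows named are the 5 members with the most sites, the 3 longest runs, the 3 bins of 1 Mb with the most members and the 5 Bone_1-only windows of at least 20 sites with the lowest Bone_2 level; others were picked after seeing their values. Single sites needed 10 calls. The code was tested on simulated data. Other levels, call minimums, window sizes and offsets, removal of the deepest cytosines, Wilson bounds and each sample alone were tried. Planned results on promoters, gene bodies and lists of genes were left out, since the gene table given is of ARS-UCD2.0.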

Additional observations from a re-analysis of the deposited data

Results flagged for a closer look

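Chromosome X lay outside the comparisons above and is given only because its windows were not used there. By the same rule 19 of its 39757 windows with enough calls were at 90% or more in both samples, 0.0478% against 0.192% on chromosomes 1 to 29. Windows at 90% or more in Bone_1 made up 2.26% of the X windows (897) and 13.4% of the autosomal ones. Of these, 2.12% on X and 1.43% on the autosomes were also at 90% or more in Bone_2. The median of the 19 windows was 20 CpG sites. The share of such windows on X was thus lower than on the autosomes, and the difference was not tested.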

How the results depend on the processing

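The number of members depended on each limit. It was 15221 with 85% in both samples in place of 90%, 45 with 95%, 1145 with 200 calls, 5619 with 500 bp windows, 425 with 2000 bp windows and 158 with Wilson lower bounds of 90%. Each sample on its own (the rule applied without the other sample) gave 3345 to 151001. The median of 15 CpG sites became 17 at 95%, 12 with 50 calls, 27 with 200 calls, 13 with 500 bp, 22 with 2000 bp and 41.5 with Wilson bounds, and 11 to 13 with each sample on its own. The share of Bone_1-high windows that were members became 4.26% at 85%, 0.241% at 95%, 1.32% with 50 calls, 1.85% with 200 calls, 3.68% with 500 bp, 0.488% with 2000 bp and 0.381% with Wilson bounds. The share of members with a member beside ran from 8.22% to 30.1%, apart from 15.8% to 49.0% with each sample on its own. Why these values moved was not tested beyond what each setting changes by its construction. The other settings (windows shifted by 500 bp, no deepest 0.1% of cytosines and, chosen after seeing the data, without the 3 bins of 1 Mb with the most members or without windows over 3 times the median depth in Bone_1) moved none of these 4 values past its limit. In each of the 11 settings with both samples, CpG-dense windows took a larger share of members than of Bone_1-only windows, the smallest ratio being 32.3% against 13.7% with 500 bp windows (20 or more sites there) and the main values 19.4% against 5.58%. No paired analysis was possible because both samples form 1 group. With a median of 235 calls in Bone_2, windows near 90% could not be sorted firmly, and in Bone_2 single sites of CpG-dense windows mostly had fewer than 10 calls.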
